A study of Rattus norvegicus with 12 samples.

Results

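The abductor and the adductors of the uninjured rat larynx were compared in 6 of the 12 arrays of the series: 3 of the posterior cricoarytenoid muscle (PCA control) and 3 of the adductor complex (AC control). All rats were male and of the F344 strain. Control animals had undergone the surgical approach to the recurrent laryngeal nerve with the nerve left intact, and tissue was taken 1 week later. The other 6 arrays, 3 of PCA injury and 3 of AC injury, came from rats in which the nerve was transected on one side and a segment removed, so the uninjured arrays also carry the effect of anaesthesia and surgery. Each value is the log2 expression level of a probe set, and 14329 genes with a single gene symbol were compared, each by its probe set with the highest mean over the 12 arrays. The labels do not tie arrays to animals, so a p-value here reflects how the arrays vary, and part of that variation may be technical. In these bulk specimens, fewer cells of a type and less RNA per cell cannot be told apart.

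The PCA is the muscle that opens the glottis at each breath, whereas the adductor complex closes it for swallowing, cough and voice. Skeletal muscle fibres are classed as slow (type I) or fast (types IIA, IIX and IIB) by the isoforms of myosin, troponin and calcium pump they make, and slow fibres rely more on mitochondrial respiration. Laryngeal muscles arise from cranial (branchiomeric) mesoderm, are fast muscles on the whole, and can hold myosins that limb muscle lacks. Cartilage, fat, glands and the mucosa of the larynx lie against both muscles and can enter a specimen.

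Muscle genes were high in all 6 specimens: the mean log2 level of 16 pan-muscle genes was 11.80, 12.04 and 11.97 in the PCA control arrays and 11.80, 11.52 and 11.64 in the AC control arrays. Myh13, the superfast myosin of extraocular and laryngeal muscle, read between 10.51 and 11.75 in the 6 arrays. Other tissue differed between the groups. The mean level of 12 squamous epithelium markers was 7.46 to 9.31 in PCA and 10.32 to 10.84 in AC, while cartilage (9.25 to 9.78 against 8.38 to 9.09) and white adipocyte markers (9.40 to 9.75 against 8.83 to 8.94) stood higher in PCA. In PCA control 1, 16 thyroid and parathyroid markers averaged 9.97, against 6.45 to 7.23 in the other 5 arrays, and thyroglobulin (Tg) read 13.93 there and 13.10 in PCA control 3, against 5.93 to 6.45 in the other 4. Across all genes, a PCA and an AC control array correlated at r = 0.958 to 0.986, 2 PCA arrays at 0.981 to 0.988 and 2 AC arrays at 0.993 to 0.995. After injury the arrays correlated at 0.983 to 0.995 between muscles, 0.984 to 0.987 within PCA and 0.989 to 0.993 within AC. Each of the 3 PCA injury arrays was nearest to an AC injury array.

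Of 14329 genes, 1523 (10.6%) passed an adjusted p of 0.05 between the uninjured muscles (called, below): 464 (3.24%) were higher and 1059 (7.39%) lower in PCA. At 2-fold or more the numbers were 40 (0.279%) and 319 (2.23%). The share of called genes that were higher in PCA was 30.5%. It was 2.06% (26 higher, 1239 lower) when each array was centred on its pan-muscle genes, which shifts all differences by -0.28 on average, and the split was 668 to 930 when arrays were centred on their medians. The total fell to 881 without PCA control 1, 805 without PCA control 3, 714 without AC control 1 and 797 without AC control 3. Differences below are PCA control minus AC control on the log2 scale, ± SE from the fit, with n = 3 arrays in each group, and the median over all genes was 0.04.

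Slow-fibre genes stood higher in the PCA. Of the 18 measured members of the slow-fibre list, 8 were called higher (3.24% of all genes) and 0 lower. All 18 differences were above 0, with a median of 0.60. The list also holds Sox6, a repressor of slow-fibre genes, whose higher reading is no sign of slow fibres. Tnnc1, the troponin C of slow and cardiac muscle, read 9.30, 10.19 and 9.75 in the PCA arrays and 8.09, 7.90 and 7.94 in the AC arrays. Every PCA array lay above every AC array, a difference of 1.77 ± 0.22 (adjusted p = 0.0020), the largest in the list. Of the 18, 14 had groups that did not overlap, where 33.7% of all genes did so in either direction and 17.7% with PCA higher. Several other muscle lists shared this trait in part. With PCA higher, 20 of 32 fatty acid, 10 of 23 calcium, 9 of 23 tricarboxylic acid, 6 of 16 pan-muscle and 6 of 15 fast-fibre genes did not overlap. Among 16 neuromuscular junction genes the number was 2. Myh7, the slow (type I) myosin heavy chain, read 10.58, 11.38 and 10.82 in PCA against 9.65, 9.35 and 9.41 in AC, with no overlap (1.46 ± 0.35, adjusted p = 0.023). Myl2, its regulatory light chain, read 9.55, 10.12 and 9.84 against 8.65, 8.18 and 8.38, also without overlap (1.43 ± 0.25, adjusted p = 0.0053). The slow troponins followed: Tnni1, the inhibitory subunit, read 8.95, 9.46 and 9.42 against 8.30, 7.74 and 8.14 (1.22 ± 0.20, adjusted p = 0.0045). Tnnt1, the tropomyosin-binding subunit, read 9.95, 10.23 and 10.23 against 9.04, 8.87 and 8.99 (1.17 ± 0.19, adjusted p = 0.0045). In both troponins the lowest PCA array was above the highest AC array.

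Smaller differences of the same direction were found for a Z-disc protein, a calcium pump and a further myosin. Myoz2, the slow-fibre calsarcin of the Z-disc, read 8.70, 9.06 and 8.96 in PCA and 8.37, 7.63 and 8.04 in AC, without overlap (0.89 ± 0.19, adjusted p = 0.015). Atp2a2, the calcium pump of slow and cardiac muscle, read 12.10, 12.08 and 12.10 against 11.51, 11.65 and 11.58 (0.51 ± 0.08, adjusted p = 0.0041). Its spread within each group was small, and the groups did not overlap. Myh7b, an ancient slow-type myosin, differed by 0.41 ± 0.10 (adjusted p = 0.024). The 10 members not called included Mybpc1, slow myosin-binding protein C (0.51 ± 0.16, adjusted p = 0.064), the calsequestrin Casq2 (0.69 ± 0.28, adjusted p = 0.15) and the slow essential light chain Myl3. Myl3 read 10.84, 11.22 and 10.76 in PCA and 10.96, 9.46 and 10.17 in AC, so AC control 1 lay within the PCA range (0.74 ± 0.66, adjusted p = 0.51). The pump regulators Pln (0.30 ± 0.15) and Sln (0.22 ± 0.12), the tropomyosin Tpm3 (0.24 ± 0.10) and the cytoskeletal proteins Csrp3 (0.70 ± 0.25) and Ankrd2 (0.51 ± 0.21) were not called. Nor were the transcription factors Tead1 (0.24 ± 0.08) and Sox6 (0.30 ± 0.19), the latter the repressor named above.

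**Figure D1:**
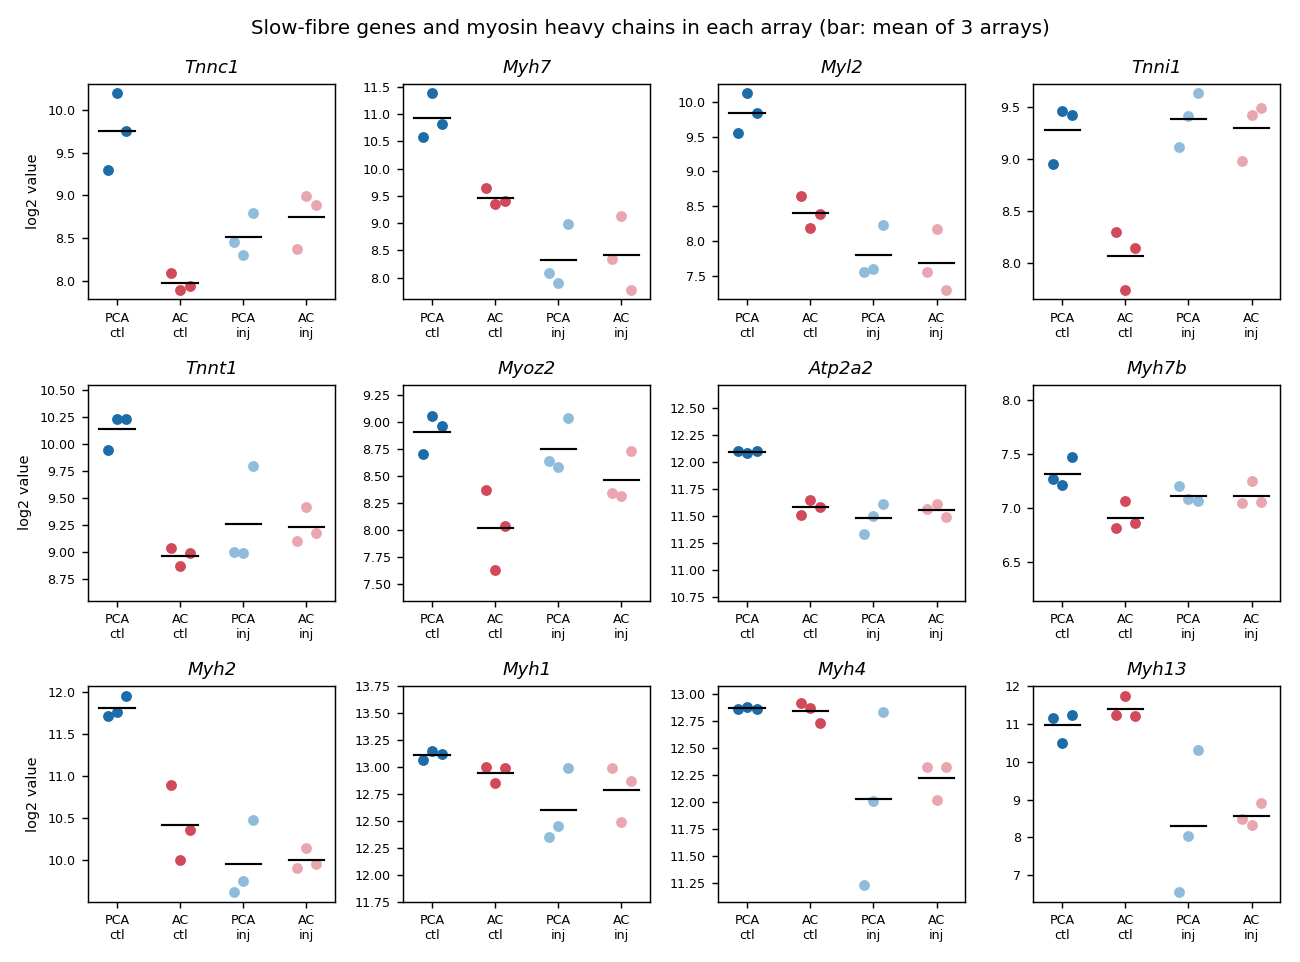
Log2 level of the 8 called slow-fibre genes and of 4 fast or superfast myosin heavy chains in each of the 12 arrays, by group (points: arrays; bar: mean of 3 arrays; ctl: control; inj: injury; each panel has its own axis range). In the 8 slow-fibre genes and in Myh2 the PCA control points lie above the AC control points, as they do for Myh7 (10.58 to 11.38 against 9.35 to 9.65), whereas injured PCA and AC points share a range.

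The calls for Tnnc1, Myl2, Tnni1, Tnnt1 and Atp2a2 held without any 1 of the 12 arrays. Myoz2 lost its call without PCA control 3, Myh7b without PCA control 1, PCA control 3, AC control 1 or AC control 3, and Myh7 without any control array other than PCA control 1, its difference ranging from 1.23 to 1.63. The number of slow-fibre genes called ranged from 5 (without PCA control 3) to 10 (without PCA injury 3) and was 7 without PCA control 1, whose thyroid score was the highest of the 6 control arrays. Centred on pan-muscle genes, 6 of the 18 were called higher (0.181% of all genes), with a median difference of 0.32: the level of these genes relative to other muscle genes differed too. The squamous score did not overlap between the groups. With that score as a covariate the median was 0.73 and 0 were called by limma (0.014% of all genes, and 8.59% at an unadjusted p under 0.05). In that fit the medians of the pan-muscle list (0.83) and the fast-fibre list (0.90) were higher, so it showed no excess of slow-fibre genes over them. For this list squamous content and muscle thus cannot be told apart by test. The part of the higher cartilage and adipocyte scores in the result was not tested beyond the covariate fits of the closing section.

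Myosin heavy chains set the speed of a fibre, and the fast and developmental ones lie side by side in one cluster of genes. Of 8 measured, 4 were called higher in PCA: Myh7, Myh2, Myh7b and Myh6, the cardiac alpha chain (0.35 ± 0.10, adjusted p = 0.039). Myh2, the heavy chain of type IIA fibres, which are fast and oxidative, read 11.71, 11.76 and 11.95 in PCA and 10.89, 10.00 and 10.36 in AC. The groups did not overlap, and the difference was 1.39 ± 0.24 (adjusted p = 0.0051), a call that held without any 1 array. Myh1, of type IIX fibres, read 13.06, 13.15 and 13.12 against 13.00, 12.85 and 12.99, close together but without overlap (0.16 ± 0.16, adjusted p = 0.56). Myh4, of type IIB fibres, read 12.86, 12.88 and 12.86 against 12.92, 12.87 and 12.73, and the groups overlapped (0.03 ± 0.29, adjusted p = 0.96). Myh13 overlapped as well (-0.43 ± 0.69), as did the embryonic chain Myh3 (0.56 ± 0.31, adjusted p = 0.28). The number of heavy chains called was 1 without PCA control 3 or AC control 1 and 2 without any other control array, since Myh6, Myh7b and Myh7 passed by small margins.

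The stretches before the transcription starts of the IIA, IIX and IIB genes, neighbours on chromosome 10, and of Myh7 on chromosome 15 are shown because Myh2 and Myh7 differed between the muscles and Myh1 and Myh4 did not pass the test. Each is the 250 bases upstream of the annotated start, 5′ to 3′ on the gene's strand, from RefSeq (GRCr8). Capitals mark letters that match the MEF2 site, bound by a muscle transcription factor family, or the E-box CANNTG, bound by myogenic factors; both strands were searched, and the 2 motifs do not overlap in these windows. Myh2 is at chr10:52355489-52355738, plus strand.
Myh2: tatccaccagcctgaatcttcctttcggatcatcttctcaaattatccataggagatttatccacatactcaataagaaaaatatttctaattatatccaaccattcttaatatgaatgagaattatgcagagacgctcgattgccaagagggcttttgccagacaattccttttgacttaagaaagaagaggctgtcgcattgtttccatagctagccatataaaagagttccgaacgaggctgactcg
Myh1 is at chr10:52384662-52384911, plus strand.
Myh1: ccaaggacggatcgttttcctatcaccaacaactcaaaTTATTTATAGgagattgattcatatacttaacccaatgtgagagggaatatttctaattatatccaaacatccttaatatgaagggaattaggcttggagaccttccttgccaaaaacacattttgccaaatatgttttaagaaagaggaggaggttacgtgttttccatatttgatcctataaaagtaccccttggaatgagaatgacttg
Myh4 is at chr10:52421898-52422147, plus strand.
Myh4: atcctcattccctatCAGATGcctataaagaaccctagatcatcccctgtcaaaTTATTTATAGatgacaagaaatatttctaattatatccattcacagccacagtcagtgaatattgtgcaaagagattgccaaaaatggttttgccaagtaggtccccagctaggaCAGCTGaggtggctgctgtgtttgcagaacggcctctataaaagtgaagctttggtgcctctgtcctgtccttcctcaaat
Myh7 is at chr15:32438195-32438444, minus strand.
Myh7: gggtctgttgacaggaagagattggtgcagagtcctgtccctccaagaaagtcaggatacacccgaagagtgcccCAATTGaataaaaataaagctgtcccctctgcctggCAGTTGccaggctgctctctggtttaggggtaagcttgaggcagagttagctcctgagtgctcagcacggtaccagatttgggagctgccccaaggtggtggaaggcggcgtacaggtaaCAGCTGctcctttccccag
Myh1 and Myh4 each hold 1 MEF2 match, which begins at base -212 and base -196 from the start, and Myh2 and Myh7 hold 0. E-boxes number 2 in Myh4, 3 in Myh7 and 0 in Myh2 and Myh1. Of 33469 rat promoter windows of the same length, 2.96% hold a MEF2 match and 65.5% an E-box, so an E-box is common. Other genes searched in the same way do not keep this split: Myoz2, called higher in PCA, holds 1 MEF2 match, and Myh13, not called, holds 0. Myh7b, Myh6, Tnni1, Tnnt1 and Atp2a2, all called, and Myh3, not called, also hold 0. Whether matches go with the calls was not tested. A match describes letters and not a bound site.

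The fast-fibre list gave 1 call among 15 measured genes (6.67%, against 10.6% of all genes), Myh2, and the median was 0.16. Of the 15, 13 differences lay above 0, and 6 genes did not overlap, with PCA higher (17.7% of all genes). Parvalbumin (Pvalb), the calcium buffer of fast fibres, read 11.86 to 12.04 in PCA and 11.97 to 12.16 in AC. Actn3, the fast-fibre alpha-actinin, read 12.01 to 12.40 and 11.86 to 12.28. Both overlapped, with differences of -0.12 ± 0.47 and 0.10 ± 0.34. Setting the slow and fast isoform of the same protein side by side describes the slow calls on a scale within each array. The 9 pairs were chosen after their values were seen and hold slow genes already called higher, so their number and direction are a description and no further evidence. The slow-to-fast ratio of all 3 PCA arrays lay above that of all 3 AC arrays in 7 of the 9. In troponin C the slow Tnnc1 differed by 1.77 ± 0.22 and the fast Tnnc2 by 0.37 ± 0.21. In troponin I the values were 1.22 ± 0.20 for Tnni1 and 0.22 ± 0.23 for Tnni2, and in troponin T they were 1.17 ± 0.19 for Tnnt1 and 0.11 ± 0.15 for Tnnt3. The regulatory light chains gave 1.43 ± 0.25 for Myl2 and 0.17 ± 0.19 for Myl11. The difference in the log2 ratio was thus 1.40 for troponin C, 1.00 for troponin I, 1.06 for troponin T and 1.27 for the light chain. It reached 1.43 for Myh7 over Myh4 and was -0.05 for tropomyosin (Tpm3 over Tpm1). The essential light chain (Myl3 over Myl1) was the other pair that overlapped.

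**Figure D2:**
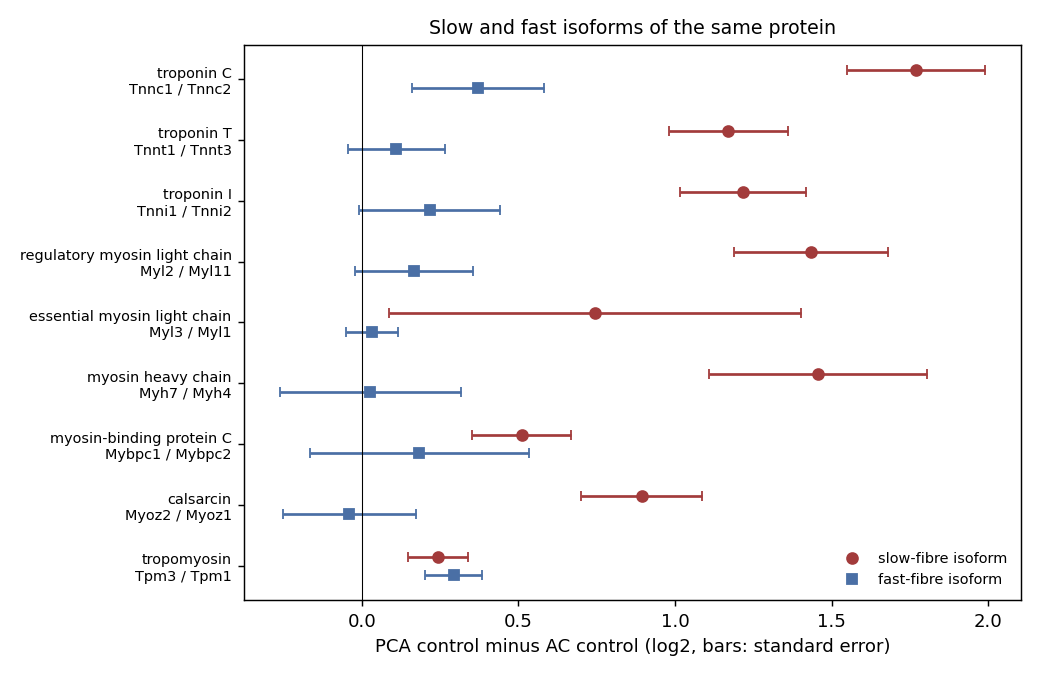
Log2 difference between PCA control and AC control (points; bars: SE; n = 3 arrays a group) for the slow-fibre isoform (circles) and the fast-fibre isoform (squares) of 9 muscle proteins. Circles for the troponins, Myh7 and Myl2 lie between 1.17 and 1.77, and all 9 squares lie between -0.04 and 0.37.

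A score per array, the mean of the slow-fibre list minus that of the fast-fibre list, was -2.59, -2.48 and -2.42 in PCA and -2.96, -3.09 and -2.97 in AC. Only differences between arrays can be read from it, since probe sets differ in brightness. All 3 PCA scores exceeded all 3 AC scores by a mean of 0.51 (exact two-sided permutation p = 0.1, the smallest that 3 against 3 arrays allow). Restricted to 9 slow and 11 fast sarcomere proteins, the difference was 0.82. That restriction also left out the tropomyosins Tpm3 and Tpm1, whose log2 ratio differed by -0.05, and the slow-list members Csrp3, Ankrd2, Tead1 and Sox6.

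The pan-muscle list is not neutral to fibre type, since Myoz1 is also in the fast-fibre list and Pgam2 in the glycolysis list. Centring on it shares that limit. Of its 16 genes, 3 were called higher (18.8%, against 3.24% of all genes), with a median of 0.24: Trim63, the muscle ubiquitin ligase MuRF1 (0.78 ± 0.21, adjusted p = 0.035), titin (Ttn, 0.31 ± 0.09) and myoglobin (Mb, 0.21 ± 0.06), the oxygen store of oxidative fibres. Mb read 13.70, 13.66 and 13.74 in PCA and 13.49 in each AC array, with an adjusted p of 0.0499, and turned to -0.07 when arrays were centred on the list. The call for Ttn was retained in 2 of 12 leave-outs, without PCA injury 1 or PCA injury 3, and that for Mb in 1, without PCA injury 3. The call for Trim63 was lost without any control array other than PCA control 2 and without AC injury 3. Skeletal actin (Acta1, 0.04 ± 0.08) and muscle creatine kinase (Ckm, 0.02 ± 0.12) were not called. Among 14 embryonic and cardiac isoforms, 2 (14.3%) were called higher, Myh6 and Ankrd1, a stretch-responsive titin-binding protein. Ankrd1 read 10.58, 10.87 and 11.17 in PCA and 9.86, 9.74 and 9.76 in AC. The groups did not overlap, and the difference was 1.09 ± 0.17 (adjusted p = 0.0041), or 0.80 after centring on pan-muscle genes, still called.

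Of 54 genes of oxidative phosphorylation, 4 were called higher (7.41%, where 3.24% of all genes were higher and 10.6% called in either direction) and 0 lower, with a median of 0.14. They were the complex I subunits Ndufa6 (0.74 ± 0.13, adjusted p = 0.0052), Ndufa5 (0.55 ± 0.11, adjusted p = 0.0097) and Ndufs4 (0.37 ± 0.10, adjusted p = 0.032), and Uqcrfs1, the Rieske protein of complex III (0.59 ± 0.13, adjusted p = 0.016). Ndufa6 read 10.03, 10.14 and 10.02 against 9.51, 9.21 and 9.25, without overlap. Without PCA control 3 or AC control 3, 2 of the 54 were called, and without PCA injury 3, 8 were. Of 23 genes of the tricarboxylic acid cycle, 0 were called by limma. All 23 differences were above 0, from 0.01 for Sdhd to 0.40 for the pyruvate carrier Mpc1, with a median of 0.18. Both medians lay below that of the pan-muscle genes (0.24). Centred on pan-muscle genes, the medians were -0.14 and -0.10, with 0 called in both lists. Of the single calls, Ndufs4 lost its own without PCA control 1, PCA control 3, AC control 2 or AC control 3, and Uqcrfs1 without PCA control 3 or AC control 3.

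Single fuel genes differed, and no such call held relative to muscle genes: centred on pan-muscle genes, 0 were called in the fatty acid list (median 0.01) and 0 in the glycolysis list (median -0.10). Of 32 genes of fatty acid uptake and oxidation, 2 were called higher and 1 lower (9.4% called, against 10.6% of all genes), 31 lay above 0 and the median was 0.29. Lpl, the lipase that frees fatty acids from circulating triglyceride, read 10.96, 11.16 and 10.97 in PCA and 10.51, 10.27 and 10.41 in AC (0.63 ± 0.09, adjusted p = 0.0033). Its groups did not overlap, and it is also a marker of fat, whose score was higher in PCA and whose part was not tested. Pdk4, the kinase that turns off pyruvate dehydrogenase, read 11.58, 11.56 and 11.32 against 11.01, 10.67 and 10.93 (0.62 ± 0.14, adjusted p = 0.017). Cpt1a, the liver-type carnitine transferase, was lower in PCA (-0.27 ± 0.07, adjusted p = 0.024), whereas the muscle-type Cpt1b was not called (0.47 ± 0.24). The heart and muscle fatty acid carrier Fabp3 had the largest difference of the list, 0.89 ± 0.31, and did not pass (adjusted p = 0.094). Of 27 genes of glycolysis and glycogen, 2 were called higher (7.41%, where 3.24% of all genes were higher and 10.6% called in either direction). Ldhb, the heart-type lactate dehydrogenase subunit that favours lactate use, read 10.37 in each PCA array and 9.91, 9.80 and 9.67 in AC (0.58 ± 0.13, adjusted p = 0.017). Slc16a3, a lactate exporter, read 10.54, 10.30 and 10.40 against 9.92, 9.80 and 9.79 (0.58 ± 0.13, adjusted p = 0.016). Neither gene overlapped between the muscles. The glycolytic enzymes Gapdh (0.01 ± 0.06), Pkm (0.00 ± 0.12) and Eno3 (0.01 ± 0.15) gave no difference that passed. The calls for Pdk4, Cpt1a, Ldhb and Slc16a3 were each lost without 2 to 4 of the control arrays.

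Of 23 calcium release and uptake genes, 2 (8.70%) were called higher, where 3.24% of all genes were higher and 10.6% called in either direction: Atp2a2 and Ryr3, a calcium release channel that is the minor isoform in most adult muscle. Ryr3 read 7.62, 7.72 and 7.42 in PCA and 7.22, 6.76 and 6.89 in AC (0.63 ± 0.12, adjusted p = 0.0089), without overlap. The main channel Ryr1 was not called (0.30 ± 0.18). Of 19 muscle ion channel genes, 2 were called higher, the potassium channel Kcna5 and Cacna1h, a low-voltage calcium channel (0.35 ± 0.09, adjusted p = 0.038). Kcna5 read 8.18, 7.68 and 7.96 against 7.17, 7.24 and 7.27 (0.71 ± 0.13, adjusted p = 0.0063). It did not overlap, and smooth muscle also makes this channel: 2 of 9 smooth muscle markers were called higher in PCA, their score being 9.45 to 9.51 against 9.09 to 9.27, and its part was not tested. Of 16 neuromuscular junction genes, 1 was higher and 1 lower (12.5% called). The adult acetylcholine receptor subunit Chrne differed by 0.38 ± 0.11 (adjusted p = 0.044), and the receptor Erbb3, which Schwann cells also make, by -0.53 ± 0.15 (adjusted p = 0.040). The fetal subunit Chrng was not called (0.20 ± 0.29). The calls for Cacna1h, Chrne and Erbb3 were retained in 4, 3 and 4 of 12 leave-outs. Centred on pan-muscle genes, 0 genes of the calcium and ion channel lists were called, and of the junction list Erbb3 was.

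Of 35 mitochondrial and fibre-type regulators, 2 were called higher (5.71%, where 3.24% of all genes were higher and 10.6% called in either direction). After centring on pan-muscle genes, 0 of the list were called higher and 1 lower. Ppp3cb, a catalytic subunit of calcineurin, the calcium-dependent phosphatase that favours slow-fibre genes, read 10.08, 10.05 and 10.05 in PCA and 9.63, 9.63 and 9.46 in AC. The groups were apart by 0.49 ± 0.08 (adjusted p = 0.0045), and the call held without any 1 array. Centred on pan-muscle genes it was lost, with a difference of 0.20 (adjusted p = 0.50). Nr4a3, an exercise-responsive nuclear receptor, differed by 0.60 ± 0.15 (adjusted p = 0.024), a call that 7 of 12 leave-outs retained and that the same centring ended (0.32, adjusted p = 0.42). Rcan1, whose transcription calcineurin drives (0.50 ± 0.15, adjusted p = 0.053), Esrrg (0.46 ± 0.14, adjusted p = 0.066) and Ppargc1a (0.37 ± 0.20, adjusted p = 0.27), both drivers of mitochondrial genes, were not called. Of 22 myogenic and satellite cell genes, 2 (9.09%) were called higher, the laminin receptor Itga7 (0.63 ± 0.11, adjusted p = 0.0065) and Fgfr4 (0.42 ± 0.10, adjusted p = 0.023, retained in 7 of 12 leave-outs), and 0 were after centring on pan-muscle genes. The myogenic factors Myod1 (0.09 ± 0.25), Myog (0.27 ± 0.29), Myf5 (-0.03 ± 0.14) and Myf6 (0.43 ± 0.23) were not called.

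**Figure D3:**
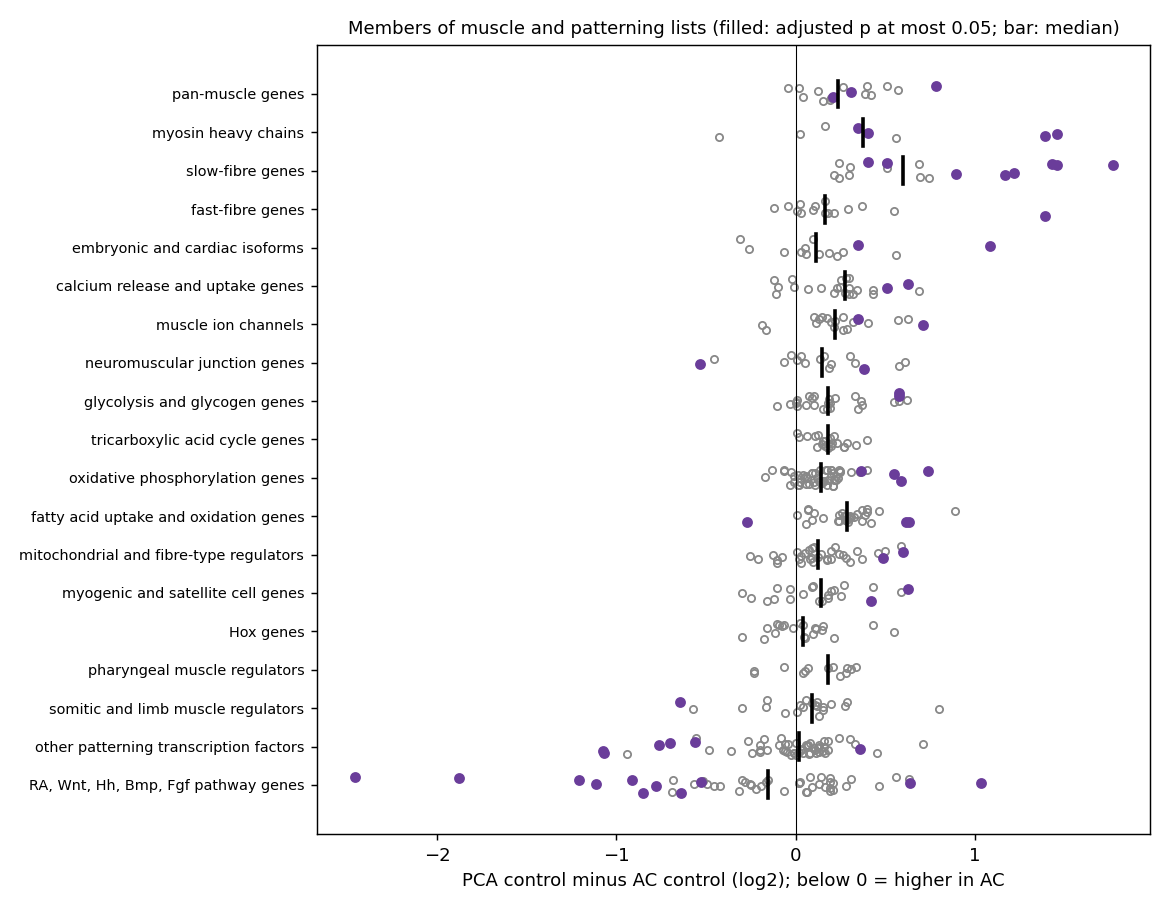
Log2 difference between PCA control and AC control for each measured member of the muscle and patterning lists (filled points: adjusted p at most 0.05; open: not; bar: list median; RA: retinoic acid; Hh: Hedgehog). The slow-fibre median is 0.60, those of the metabolic lists lie between 0.14 and 0.29, and the signalling list reaches -2.46.

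Developmental patterning genes of muscle origin gave few calls. Of 21 Hox genes, the code of position along the trunk and limb, 0 were called by limma, with a median of 0.04. The nearest were Hoxa7, which read 6.74, 6.59 and 7.05 in PCA and 6.51, 6.29 and 6.29 in AC (0.43 ± 0.14, adjusted p = 0.067), and Hoxb4, which read 8.57, 8.71 and 8.80 against 8.45, 8.51 and 8.48 (0.21 ± 0.07, adjusted p = 0.079). Hoxa5, which has a role in forming the laryngeal and tracheal cartilages, differed by 0.55 ± 0.23 (adjusted p = 0.15). These 3 genes were the Hox genes whose PCA arrays all lay above all AC arrays, as 17.7% of all genes did. Of 13 regulators of pharyngeal muscle, 0 were called by limma. Lhx2 (0.34 ± 0.12, adjusted p = 0.088) and Tcf21 (0.28 ± 0.17) led the list, and Isl1 differed by 0.04 ± 0.16. Of 21 somitic and limb regulators, 1 was called (4.76%, against 10.6% of all genes). Pax9, a factor of the pharyngeal pouches, sclerotome and oral epithelium, was lower in PCA, at 9.22, 9.82 and 9.52 against 10.33, 10.18 and 9.98 (-0.64 ± 0.18, adjusted p = 0.048), a call that 4 of 12 leave-outs retained.

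Most called genes of these lists were lower in PCA, as were most called genes at large (1059 of 1523). Of 57 other patterning transcription factors, 1 was higher (Irx6, 0.36 ± 0.09, adjusted p = 0.034) and 5 were lower, a share near the 7.39% of all genes that were lower. Pitx1, a hindlimb and jaw factor, read 8.01, 8.59 and 7.99 in PCA and 9.61, 9.03 and 9.16 in AC (-1.07 ± 0.21, adjusted p = 0.0090). Dlx3, a factor of skin and tooth epithelium, read 6.61, 7.35 and 6.97 against 8.46, 7.75 and 7.95 (-1.08 ± 0.22, adjusted p = 0.0099). Neither overlapped. Twist1 (-0.70 ± 0.12, adjusted p = 0.0046) and Twist2 (-0.76 ± 0.14, adjusted p = 0.0060), factors of mesenchyme, and Osr1 (-0.56 ± 0.14, adjusted p = 0.024), of connective tissue, were the others. The calls for Irx6 and Osr1 were each lost without PCA control 1, PCA control 3 or any AC control array. Of 49 genes of the retinoic acid, Wnt, Hedgehog, Bmp and Fgf pathways, 9 were lower and 2 higher (22.4% called, against 10.6% of all genes), with a median of -0.15.

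The retinoic acid-binding proteins showed the widest gaps of the signalling list. Crabp2 read 5.89, 7.28 and 5.92 in PCA and 9.22, 8.28 and 8.97 in AC (-2.46 ± 0.39, adjusted p = 0.0042). Crabp1 read 8.26, 9.28 and 9.02 against 10.61, 10.99 and 10.59 (-1.88 ± 0.33, adjusted p = 0.0058). All PCA arrays were below all AC arrays in both genes. The Wnt ligands Wnt2b (-1.21 ± 0.14, adjusted p = 0.0015) and Wnt5a (-1.11 ± 0.18, adjusted p = 0.0045), the ligands Bmp7 (-0.85 ± 0.15) and Fgf10 (-0.53 ± 0.13), and the Wnt modulators Dkk2 (-0.91 ± 0.18), Dkk3 (-0.78 ± 0.14) and Sfrp1 (-0.64 ± 0.13) were also lower. Grem1, a Bmp antagonist, read 10.36, 9.92 and 10.70 in PCA and 8.75, 9.77 and 9.35 in AC (1.04 ± 0.25, adjusted p = 0.023), and Rspo3, a Wnt agonist, differed by 0.64 ± 0.18 (adjusted p = 0.045). The call for Grem1 was retained in 8 of 12 leave-outs, that for Rspo3 in 5 and that for Fgf10 in 9. Fibroblast markers, 5 of 14 lower in PCA (2 without AC control 3, 3 without PCA control 1, PCA control 3 or AC control 1), and squamous markers, 11 of 12 lower, moved with these genes. With the squamous score as a covariate, 0 of the 49 and 0 of the 57 were called, and Crabp2 differed by -0.40, Pitx1 by 0.01, Twist1 by -0.83, Wnt2b by -1.30 and Grem1 by -0.13. Centred on pan-muscle genes, 14 of the 49 and 8 of the 57 were called lower, and 0 higher.

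Many of the largest differences were in genes known from tissues other than muscle, and the source of these transcripts was not tested. Each of the 15 largest negative differences among named loci lay between -3.58 and -4.70, and they included Krt13, Sprr3, Cnfn, Kprp, Tgm3, Alox12b and Dmkn, which belong to stratified squamous epithelium. Krt13, a keratin of wet mucosa, read 9.09, 12.13 and 6.58 in PCA and 13.29, 12.82 and 12.98 in AC (-3.76 ± 0.97, adjusted p = 0.032). PCA control 2 was close to the AC range and PCA control 3 far below it, so the PCA specimens differed widely among themselves in this gene. The calls for Krt13 and Dmkn were lost without any control array other than PCA control 2, and that for Tgm3 without PCA control 1, PCA control 3, AC control 1 or AC control 3. The call for Alox12b was lost without PCA control 1, AC control 1 or AC control 3, and that for Kprp without PCA control 1 or AC control 1, while 7 of the 12 squamous markers were called without AC control 1. Ngp, a granule protein of neutrophil precursors, read 4.68, 5.14 and 4.74 against 8.78, 9.89 and 9.02 (-4.38 ± 0.52, adjusted p = 0.0016), without overlap. Ahsp, the haemoglobin-stabilising protein of red cell precursors (-2.89 ± 0.34), and the neutrophil peptide Camp (-1.13 ± 0.10) were called lower too, among 10 of 18 granulocyte, mast and red cell markers. Of 16 macrophage markers, 7 were lower, a count of 1 without PCA control 3, AC control 1 or AC control 3, 2 without PCA control 1, 3 without AC control 2 and 12 without PCA control 2.

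On the PCA side, genes of cartilage and fat were among the largest differences. Acan, the aggrecan core protein, read 11.86, 11.20 and 12.14 in PCA and 9.34, 10.72 and 10.27 in AC (1.62 ± 0.35, adjusted p = 0.014). Col2a1, the main cartilage collagen, read 10.89, 10.26 and 10.76 against 8.81, 9.34 and 9.41 (1.45 ± 0.27, adjusted p = 0.0072). Both were without overlap, and 11 of 19 cartilage markers were called higher, among them Col10a1 (1.90 ± 0.43) and Clec3a (1.46 ± 0.32), whereas Epyc was lower (-1.70 ± 0.35). The 12 calls of that list became 3 without PCA control 3 or AC control 1, 4 without PCA control 1 and 5 without AC control 3. Acan lost its call without PCA control 3, Clec3a without PCA control 1, PCA control 3 or AC control 1, and Col10a1 without any of those 3 or AC control 3. Adipoq, the adipocyte hormone adiponectin, read 10.15, 10.55 and 10.20 against 8.73, 8.75 and 8.72 (1.57 ± 0.31, adjusted p = 0.0089), and 10 of 17 white adipocyte markers were higher, with Plin1 (1.54 ± 0.26) and Pck1 (1.48 ± 0.31). A gene of brown fat stood furthest apart. Ucp1, the uncoupling protein of brown adipocytes, read 8.71, 9.73 and 8.15 in PCA and 4.90, 5.02 and 5.31 in AC, far apart (3.79 ± 0.34, adjusted p = 5.06e-04), the largest positive difference of all called genes. Adrb3, the adrenergic receptor of fat, differed by 1.44 ± 0.27 (adjusted p = 0.0077), and 3 of 14 brown adipocyte markers were higher and 1 lower. Ucp1 (5.08, adjusted p = 0.047) and Camp (-1.48, adjusted p = 0.047) were the 2 genes called with the squamous score as a covariate.

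**Figure D4:**
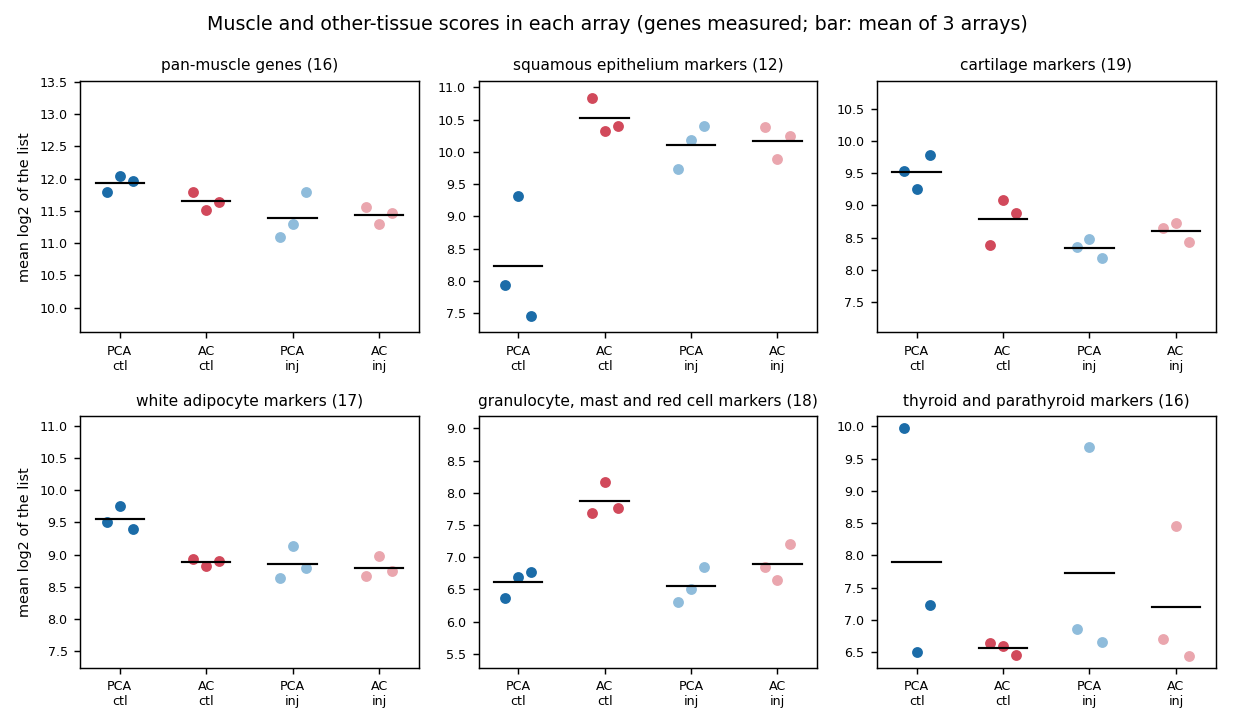
Mean log2 level of 6 marker lists in each of the 12 arrays, by group (points: arrays; bar: mean of 3 arrays; number of genes in brackets; ctl: control; inj: injury; each panel has its own axis range). Squamous scores lie between 7.46 and 9.31 in PCA control and at 9.73 or above in the other 9 arrays, and cartilage and white adipocyte scores are highest in PCA control.

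The other members of the 15 largest positive differences were Serpina6, the corticosteroid carrier (2.55 ± 0.39), Scrg1, a gene of cartilage-forming cells (2.48 ± 0.45), Scd, a lipogenic desaturase (1.65 ± 0.32), Ankef1 (1.65 ± 0.28), Crispld1 (1.52 ± 0.26) and Stk32b (1.52 ± 0.31). Tnnc1 and Myh7 were the 2 genes of the contractile apparatus among the 15. No named gene outside the lists of other tissue met a stricter rule, a call that held with the squamous covariate and the same non-overlapping direction after injury: of 1416 such genes called without overlap in controls, 67 had non-overlapping injured arrays in the same direction (6.48% of all genes did not overlap there, in either direction), and 0 were called with the covariate. The squamous score did not overlap between the control groups, and with it only Ucp1 and Camp were called among all genes. Both are in lists of other tissue, so no gene could pass this rule. Its 0 therefore says nothing about the 1416 genes.

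In the injured arrays, where the same muscles were compared 1 week after nerve transection, these differences did not pass the test. Between PCA injury and AC injury, 0 of 14329 genes were called by limma (0%), and 517 (3.61%) had an unadjusted p under 0.05. The median difference of the 18 slow-fibre genes was 0.02 there, against 0.60 in controls. Myh7 read 8.09, 7.91 and 8.98 in PCA injury and 8.34, 9.14 and 7.78 in AC injury (-0.09 ± 0.35), below every control array of its own muscle. Myh2 read 9.62, 9.75 and 10.47 against 9.90, 10.14 and 9.95 (-0.05 ± 0.24). Tnnt1 gave 0.03 ± 0.19, Tnni1 0.09 ± 0.20, Myl2 0.12 ± 0.25, Myoz2 0.29 ± 0.19, Atp2a2 -0.07 ± 0.08 and Myh7b 0.00 ± 0.10. The injured arrays of the 2 muscles overlapped in Myh7 and Myh2, and the slow-minus-fast score differed by 0.17 between them (exact two-sided permutation p = 0.8). Of the 9 isoform pairs, 0 were free of overlap. The other-tissue scores lay closer together as well: the squamous score was 9.73, 10.19 and 10.40 in PCA injury and 10.39, 9.89 and 10.25 in AC injury, and the cartilage score was 8.18 to 8.48 in PCA injury. The part of tissue content in the smaller injured differences was not tested. Of 14329 genes, 22 (0.154%) had a muscle difference in controls that differed from that in injured animals, and among the 18 slow-fibre genes Tnnc1 was the 1 that did.

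**Figure D5:**
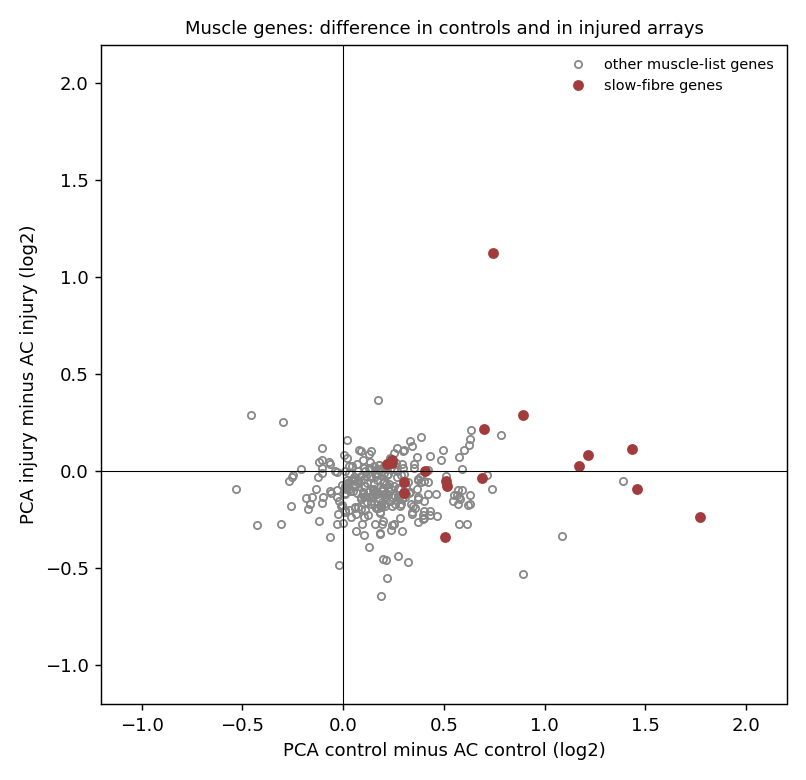
Log2 difference between PCA and AC in controls (horizontal axis) and in injured animals (vertical axis) for each gene of the muscle lists (filled: 18 slow-fibre genes; open: other members). The filled points run from 0.22 to 1.77 along the horizontal axis, while their median on the vertical axis is 0.02; the uppermost one, Myl3, is at 1.13.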

How the data were processed

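RNA from 3 PCA control, 3 AC control, 3 PCA injury and 3 AC injury specimens had been hybridised to Affymetrix rat gene arrays, with groups and replicate numbers taken from the sample titles. Per the submitters' processing notes, RMA and Partek were used (no version or role is listed). The values that the authors deposited, at probe set level, were taken to be on the log2 scale from their range (2.57 to 14.04) and because RMA ends in log2 values. Background step and annotation version: not given in the sources used here. RMA quantile-normalises arrays, so differences are relative to the other genes of a specimen. Array medians were 7.11 to 7.17, and the number of arrays limits precision.

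Of 27342 probe sets, 15103 carry a single gene symbol in the platform annotation, 317 several and 11922 none, and those of the last 2 kinds entered no test. Gene identifiers matched the RefSeq annotation GRCr8, used for names, for 15072, and 31 kept their symbol. Where a gene had several probe sets (500 genes), the brightest by mean over all arrays stood for it, leaving 14329 genes. A limma model (3.58.1, R 4.3.3) of 4 group means used all 12 arrays (lmFit, eBayes; 8 residual and 3.14 prior degrees of freedom), without a filter on dim genes. P-values were two-sided and adjusted over all genes by Benjamini-Hochberg, with a threshold of 0.05. The fit was tested on simulated data. A score is the mean log2 level of a list in an array. Plots were drawn with matplotlib 3.10.9 under Python 3.11.15.

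The comparison, its gene lists and tests were chosen with earlier results of these data known, and the isoform pairs after their values were seen. The naming rule took the 15 largest differences each way among called genes whose groups did not overlap and that have a named locus, any member of the muscle and patterning lists, and from each list of other tissue the first listed member and the 3 with the lowest adjusted p. Col2a1 is such a first-listed gene, and no gene met the rule's stricter part. Alternatives covered the arrays fitted, a replicate block, dim genes, normalisation, probe set choice, the prior, array weights, tissue scores as covariates, 3 arrays with high thyroid transcripts, thresholds and leaving out each array. Promoter sequences are from RefSeq, and Tnnc1 and Myl2 were not matched in that table.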

Additional observations from a re-analysis of the deposited data

Results flagged for a closer look

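A test of the difference between 2 contrasts (the difference between the muscles in controls minus that in injured animals, in the limma fit) passed for 22 of 14329 genes. The number was 406 without PCA control 2, 0 without AC control 1, AC control 3 or AC injury 1, and 1 to 18 without each of the other 8 arrays. Tnnc1, slow troponin C, was 1.77 higher in PCA than in AC in controls and lay at 8.46, 8.30 and 8.79 in PCA injury against 8.37, 8.99 and 8.89 in AC injury (-0.23 ± 0.22); the difference between the 2 was 2.00 ± 0.31 (adjusted p = 0.042). Ucp1, of brown fat, read 5.25, 5.87 and 5.09 in PCA injury and 5.16, 5.49 and 4.84 in AC injury (0.24 ± 0.34), and its difference in controls exceeded this by 3.55 ± 0.49 (adjusted p = 0.029). In all 3 PCA control arrays both genes were above every AC control array, and in the injured arrays both overlapped.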

How the results depend on the processing

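The 1523 calls between the uninjured muscles were 790 with a replicate block, 2626 with array weights, 812 without PCA control 1, PCA injury 2 and AC injury 2, the arrays with the highest thyroid scores, 560 at an adjusted p of 0.01 and 359 at 2-fold or more. They were 2 when the squamous score was a covariate, and 0 with the cartilage score, the white adipocyte score or all 3 scores. Leaving out single arrays gave 714 to 1813. The 22 genes of the test between contrasts became 0 with the replicate block, with squamous content as a covariate and without those 3 arrays, and 0 to 406 without single arrays (406 without PCA control 2). Same-numbered control arrays deviated from their group means with correlations of -0.05, -0.34 and 0.03, and injured ones with -0.39, 0.34 and 0.27; as not every pair exceeded 0.1, the numbers were not taken to pair the arrays. Between injured muscles 0 genes were called in every alternative run. The slow-minus-fast difference ranged from 0.47 to 0.56 without single arrays. Signs turned as follows, and the cause was not tested. Some of these genes are part of a score used as a covariate, so their fits on that score are not independent of their own values. Krt13 is in the squamous list, and Col2a1, Col10a1, Clec3a and Epyc are in the cartilage list. Adipoq, Plin1 and Pck1 are in the white adipocyte list. With squamous content as a covariate, differences were 0.079 for Pax9, 0.008 for Pitx1, -0.13 for Grem1, -0.023 for Rspo3, -0.024 for Clec3a, 0.11 for Epyc, 2.47 for Stfa3, 0.32 for Serpinb2, 0.55 for Cnfn, 1.45 for Serpinb12, 0.11 for Klk10, 1.06 for Kprp, 1.61 for Tgm3, 0.89 for Sprr3, 1.21 for Alox12b, 1.87 for Dmkn, 1.67 for Krt13, 0.14 for Wfdc5 and 0.34 for Klk9. With all 3 scores they were -0.13 for Cacna1h, 0.20 for Erbb3, 0.43 for Pax9, 0.034 for Twist1, 0.34 for Twist2, 0.51 for Osr1, 0.34 for Wnt5a, 0.29 for Bmp7, 1.23 for Crabp1, 0.012 for Dkk3, 0.11 for Dkk2 and -0.25 for Rspo3. They were -0.27 for Serpina6, -1.57 for Scrg1, -1.65 for Col10a1, -0.33 for Ankef1, -0.77 for Adipoq, -0.44 for Plin1, -0.36 for Stk32b, -0.99 for Pck1, -0.58 for Clec3a, -0.38 for Col2a1, 0.18 for Epyc and 0.39 for Duox2, and among the largest negative differences 0.91 (Stfa3), 1.48 (Serpinb2), 0.46 (Cnfn), 1.06 (Serpinb12), 3.09 (Clca4l), 1.70 (Klk10), 0.70 (Kprp), 0.82 (Tgm3), 0.50 (Sprr3), 0.36 (Alox12b), 1.41 (Dmkn), 0.91 (Krt13), 0.23 (Wfdc5) and 0.86 (Klk9). Rspo3 was -0.043 with the cartilage score and Mb -0.074 after pan-muscle centring.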

Other observations

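A few genes of cell division, picked for their values and not from a list, stood out among the 22 genes that passed the test between contrasts. Top2a, the topoisomerase of dividing cells, read 6.73, 6.82 and 6.67 in PCA control, 8.56, 8.07 and 8.24 in AC control, and 8.05 to 8.65 in the 6 injured arrays. Cyclin A (Ccna2) read 6.34, 6.45 and 6.36 in PCA control, 8.12, 7.71 and 7.88 in AC control and 7.89 to 8.56 in the injured arrays. Kif23 and Nusap1, of the mitotic spindle, gave control differences of -1.50 ± 0.15 and -1.40 ± 0.14, and the histone gene Hist2h3c2 one of -1.37 ± 0.10. Probes of near-identical histone genes overlap, so single histone values are uncertain. Il1rn, the interleukin receptor antagonist that squamous epithelium also makes, read 6.27, 7.62 and 5.85 in PCA control and 9.69 or more in the other 9 arrays. These genes were chosen after their values were seen.

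Outside every list, genes with a named locus that were called higher in PCA control without overlap were ranked by their likeness to slow-fibre genes. Likeness was Pearson's r over the 12 arrays with the mean of the 8 called slow-fibre genes, a description over arrays that share groups and tissue content. The most alike included Slc30a3 (r = 0.94), Pex19 (0.93), Elk1 (0.93) and dystrophin (Dmd, 0.93). As only genes already called higher were ranked, their control differences are no further evidence. Dmd, which links the cytoskeleton of muscle fibres to the matrix, read 9.61, 9.95 and 9.92 in PCA control and 9.39, 9.32 and 9.24 in AC control, a difference of 0.51 ± 0.10 (adjusted p = 0.0090). Wnt2b, a member of the signalling list already called lower in PCA control, ran opposite to the slow-fibre mean (r = -0.91). Its r is no further evidence either. This likeness search was also made after the values were seen.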
